A study of Mus musculus with 9 samples.

Results

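The genes described here are 36 mouse genes of protein folding and quality control in the endoplasmic reticulum, taken by symbol from a table of 23420 gene symbols. All 36 were in the table, and all 36 were among the 13839 genes tested, which had at least 1 TPM (transcripts scaled to the same total in every library) in at least 3 libraries. RNA was sequenced from cultured neural stem cells of the hippocampus of 2-day-old wild-type C57BL/6J mice. Cells in all 3 groups had been moved to a medium lacking bFGF and EGF, which lets them differentiate. One group received 3 µM NAT, which the labels describe as a small molecule that is new, and another received 3 µM P7C3-A20, an aminopropyl carbazole known for protecting neurons. The control group received the vehicle, dimethyl sulfoxide (DMSO). Each group has 3 libraries. The labels call them biological replicates but name no separate culture or animal, and the p-values reflect only how far these libraries differ, which may be technical. No untreated or proliferating culture was analysed here.

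Proteins that are secreted or sit in membranes enter the endoplasmic reticulum through the Sec61 channel, where chaperones, disulfide isomerases and sugar-binding lectins help them fold. Proteins that fail to fold are returned to the cytosol and degraded. When unfolded proteins build up, the sensors Atf6, Ire1 (gene Ern1) and Perk (gene Eif2ak3) start the unfolded protein response, which raises transcription of chaperone and degradation genes and lowers protein synthesis. In neural stem cells and neurons this system handles the receptors, adhesion molecules and secreted factors that differentiating cells make.

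The 36 genes stood at similar levels in NAT, P7C3-A20 and DMSO cultures, with log2 fold changes between -0.27 and 0.17 over the 3 comparisons. None of them passed the test in any of the 3 comparisons, which was limma-trend on log2(TPM + 1) with a Benjamini-Hochberg adjusted p below 0.05 over all 13839 genes. On the log2(TPM + 1) scale, the 95% interval of the fold change lay within 1.5-fold in either direction for 36 of 36 genes in each comparison. In TPM itself the range is wider for weak genes such as Derl3. It lay within 1.2-fold for 31 genes in NAT against DMSO, 30 in P7C3-A20 against DMSO and 27 in NAT against P7C3-A20. Few genes of the whole table passed either: 0.0289% in NAT against DMSO, 0.0217% in P7C3-A20 against DMSO and 0% in NAT against P7C3-A20. The lectin chaperone gene Calr and the degradation gene Sel1l had higher values in every NAT and every P7C3-A20 library than in any DMSO library. Hyou1 and Dnajb11 did too. Over all genes, 14.1% lay entirely above DMSO in NAT and 13.1% in P7C3-A20. These shares are for each compound singly, and the share of all genes above DMSO in both was not counted. Sec61b, a small subunit of the Sec61 channel, had lower values in every NAT library than in any DMSO library. Of all genes, 4.89% lay entirely below DMSO in NAT. These are bulk cultures, in which fewer cells of a type and less RNA per cell cannot be told apart.

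**Figure D1:**
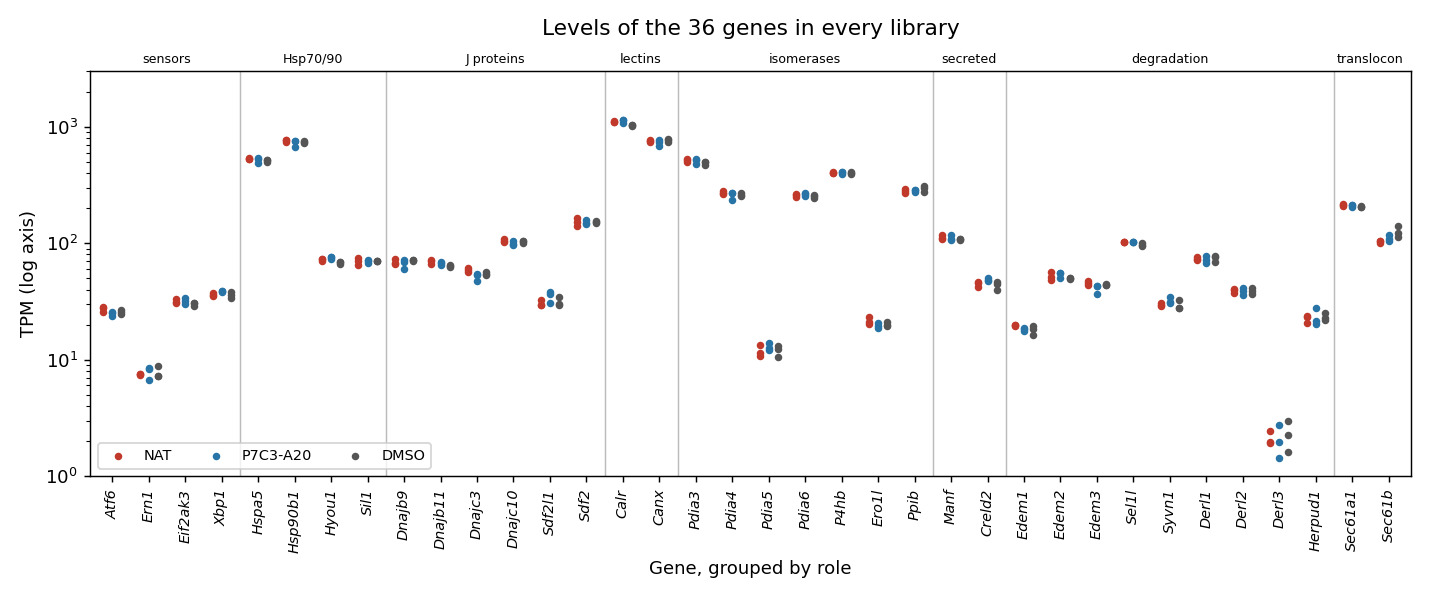
TPM of each of the 36 genes (log axis) in the 3 NAT, 3 P7C3-A20 and 3 DMSO libraries, 1 point per library, with genes grouped by role. Levels span from about 2.15 TPM for Derl3 to about 1087 TPM for Calr, and within a gene the groups lie close together.

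Recovered read numbers came to 12738006 to 13516248 in the NAT libraries, 15380977 to 16929714 in the P7C3-A20 libraries and 11487218 to 13604222 in the DMSO libraries. Summed levels of 7 neural progenitor and radial glia markers (Fabp7, Nes, Vim, Sox2, Hes5, Slc1a3 and Pax6) were 18280 to 18740 TPM in NAT libraries, 17300 to 18210 TPM in P7C3-A20 libraries and 18890 to 19310 TPM in DMSO libraries. Fabp7 alone made up 11168 to 11746 TPM of that sum in NAT, 10636 to 11236 TPM in P7C3-A20 and 11868 to 12411 TPM in DMSO libraries, and without it the groups overlapped. In NAT against DMSO, the NAT libraries were entirely above the DMSO libraries for 4 of 7 astrocyte markers (Gfap, S100b, Slc1a2 and Gjb6) and for the progenitor markers Slc1a3 and Pax6. They were entirely below for 4 of 8 oligodendrocyte lineage markers (Olig2, Sox10, Pdgfra and Gpr17) and for Fabp7 and Hes5. Of all genes, 14.1% lay entirely above DMSO in NAT and 4.89% entirely below. In P7C3-A20 against DMSO, the markers with no overlap included Aldh1l1 and Mbp, entirely above, and Fabp7, entirely below. Of all genes, 13.1% lay entirely above DMSO in P7C3-A20 and 7.49% entirely below. None of these markers passed the limma-trend test, and the part of these shifts in the values given here was not tested. Of 9 microglia and macrophage markers, 4 were listed at 0 in all libraries (Ctss, Trem2, C1qc and Cx3cr1) and the sum was 6.79 to 9.38 TPM. The endothelial genes Cldn5 and Cdh5 and the blood genes Hba-a1 and Hbb-b1 were also listed at 0 throughout. Other markers of such cells were present at low levels. The endothelial gene Flt1 was at 4.02 to 5.32 TPM, with NAT entirely above DMSO. The blood gene Alas2 was at 0.90 to 3.42 TPM and the meninges gene Foxc1 at 5.86 to 9.31 TPM. P7C3-A20 replicate 3 stood apart: it held the lowest of the 9 values for 15 of the 36 genes and the highest for 6. The same count was not made over all genes. Values without this library are given beside several results.

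Many genes of this system carry a short promoter element through which the unfolded protein response acts, and the matches are printed because several of the 36 genes share them. The endoplasmic reticulum stress response element (ERSE), known to be bound by Atf6 together with the factor NF-Y, was searched as CCAAT followed by CCACG after a gap of 9 bases. ERSE-II was searched as ATTGG followed by CCACG after a gap of 1 base. Both strands were read in RefSeq promoter windows of 250 bases before to 50 bases after each gene start (build GRCm38.p6). A window was found for 30 of the 36 genes, with Ero1l matched under its current symbol Ero1a. No window was matched for Atf6, Sec61a1, Derl1, Hyou1, Manf or Sil1. ERSE was present for 9 of these 30 genes, against 0.137% of 27025 genes with a window. ERSE-II was present for Dnajb11 and Herpud1 (6.67%), against 0.0444% of genes. The matches are written 5′ to 3′ on the strand that reads the element, with the fixed bases of the element in capitals.
Hspa5 ERSE (chr2:34772025-34772043, plus strand): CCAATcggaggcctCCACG
Calr ERSE (chr8:84847075-84847093, plus strand): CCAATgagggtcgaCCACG
Derl3 ERSE (chr10:75893242-75893260, minus strand): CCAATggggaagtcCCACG
Hsp90b1 ERSE (chr10:86705638-86705656, minus strand): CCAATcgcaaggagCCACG
Hsp90b1 ERSE (chr10:86705533-86705551, plus strand): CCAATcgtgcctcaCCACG
Canx ERSE (chr11:50325800-50325818, minus strand): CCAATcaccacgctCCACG
Pdia6 ERSE (chr12:17266491-17266509, plus strand): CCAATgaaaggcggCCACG
Dnajc3 ERSE (chr14:118937827-118937845, plus strand): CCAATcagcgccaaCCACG
Creld2 ERSE (chr15:88819520-88819538, minus strand): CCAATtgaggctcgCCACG
Syvn1 ERSE (chr19:6046532-6046550, plus strand): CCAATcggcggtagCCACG
Herpud1 ERSE-II (chr8:94386377-94386387, plus strand): ATTGGgCCACG
Dnajb11 ERSE-II (chr16:22857852-22857862, plus strand): ATTGGcCCACG

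The boxes that make up the elements were common by themselves, and these counts include the boxes within ERSE and ERSE-II. CCAAT was found in 73.3% of the 30 genes and in 41.1% of all genes. CCACG was found in 80.0% of the 30 genes and in 35.5% of all genes. The sequence TGACGTGG, a core that Xbp1 and Atf6 are known to bind, was found for none of the 30 genes and in 0.714% of all genes. The amino acid response core TGATGCAA, bound by factors downstream of Perk such as Atf4, was found for Herpud1 alone (3.33%), against 1.03% of all genes. A match is only a match of letters in this window. The 250 bases before the start are printed for the chaperone genes Hspa5 and Hsp90b1 and for Herpud1, in gene orientation with ERSE or ERSE-II in capitals. Hsp90b1 carries ERSE at 2 positions, in opposite orientations.
Hspa5 (chr2:34771840-34772089, plus strand): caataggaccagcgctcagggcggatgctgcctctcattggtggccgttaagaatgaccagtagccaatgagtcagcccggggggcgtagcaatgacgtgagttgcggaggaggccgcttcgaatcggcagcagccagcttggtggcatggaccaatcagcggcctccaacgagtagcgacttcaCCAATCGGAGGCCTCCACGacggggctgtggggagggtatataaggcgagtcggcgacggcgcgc
Herpud1 (chr8:94386179-94386428, plus strand): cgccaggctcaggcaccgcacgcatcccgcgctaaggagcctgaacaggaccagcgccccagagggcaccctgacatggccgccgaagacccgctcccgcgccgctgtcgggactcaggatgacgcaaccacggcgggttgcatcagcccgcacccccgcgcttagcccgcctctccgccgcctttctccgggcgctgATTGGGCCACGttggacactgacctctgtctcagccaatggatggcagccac
Hsp90b1 (chr10:86705445-86705694, minus strand): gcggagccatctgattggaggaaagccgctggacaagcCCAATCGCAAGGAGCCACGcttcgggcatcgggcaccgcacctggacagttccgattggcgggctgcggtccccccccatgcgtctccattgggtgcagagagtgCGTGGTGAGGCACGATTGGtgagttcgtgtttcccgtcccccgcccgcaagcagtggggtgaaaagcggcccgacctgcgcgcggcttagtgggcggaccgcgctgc

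The 11 genes with ERSE or ERSE-II had median log2 fold changes of 0.04 in NAT against DMSO, 0.02 in P7C3-A20 against DMSO and 0.04 in NAT against P7C3-A20. The medians of the 19 genes with a window and neither element were 0.02, 0.0063 and -0.0043 in the same order of comparisons. Those of all genes tested were 0.03, 0.01 and 0.01. The difference between genes with and without an element was not tested. None of the 30 genes passed the test in any comparison.

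The sensors came first in the pathway and were among its weaker transcripts. Xbp1, the transcription factor whose mRNA Ire1 splices, had the highest level of the 4 genes in this group. Its level was 37.4, 35.5 and 35.8 TPM in the NAT libraries, 39.2, 38.2 and 39.2 TPM in the P7C3-A20 libraries and 37.9, 33.6 and 35.6 TPM in the DMSO libraries. Every P7C3-A20 library was above every NAT and every DMSO library for Xbp1, while NAT and DMSO libraries overlapped. The log2 fold change was 0.12 ± 0.05 (SE) for P7C3-A20 against DMSO (adjusted p = 0.277), 0.02 ± 0.05 for NAT against DMSO (adjusted p = 0.885) and -0.10 ± 0.05 for NAT against P7C3-A20 (adjusted p = 0.362). The table gives 1 value per gene, so spliced and unspliced Xbp1 mRNA are not separated.

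Atf6, a sensor that is cut in the Golgi to release a transcription factor, stood at 25.8, 28.1 and 28.0 TPM in the NAT libraries, 25.3, 25.7 and 23.9 TPM in the P7C3-A20 libraries and 25.7, 26.7 and 24.8 TPM in the DMSO libraries. All 3 NAT libraries were above all 3 P7C3-A20 libraries, and NAT and DMSO libraries overlapped. The difference was 0.12 ± 0.06 log2 units for NAT against P7C3-A20 (adjusted p = 0.309). Ern1, which encodes the splicing sensor Ire1, averaged 7.51 ± 0.119 TPM in NAT, 7.80 ± 1.01 TPM in P7C3-A20 and 7.75 ± 0.883 TPM in DMSO libraries (SD, n = 3 each). Eif2ak3, which encodes the kinase Perk, averaged 31.6 ± 1.41, 32.0 ± 1.83 and 30.1 ± 0.878 TPM in NAT, P7C3-A20 and DMSO libraries. The groups overlapped for both kinase genes in all 3 comparisons.

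Among the chaperones of the lumen, Hspa5 encodes BiP, the Hsp70 that binds unfolded chains and holds the sensors inactive, and is the usual readout of the unfolded protein response. Hspa5 measured 530.3, 526 and 541 TPM in the NAT libraries, 530.1, 536 and 490.1 TPM in the P7C3-A20 libraries and 519, 515 and 502 TPM in the DMSO libraries. The NAT libraries lay above the DMSO libraries, whereas P7C3-A20 replicate 3 was the lowest of all 9. The log2 fold change was 0.06 ± 0.04 for NAT against DMSO (95% interval -0.02 to 0.14, adjusted p = 0.567) and 0.02 ± 0.04 for P7C3-A20 against DMSO (95% interval -0.06 to 0.10, adjusted p = 0.842). Without P7C3-A20 replicate 3, the P7C3-A20 value was 0.06 (limma adjusted p = 0.421). Hsp90b1, the Hsp90 of this compartment, measured 769.8, 739 and 767 TPM in the NAT libraries, 752, 752 and 672 TPM in the P7C3-A20 libraries and 752, 738 and 723 TPM in the DMSO libraries. Its groups overlapped in every comparison, with the lowest value again in P7C3-A20 replicate 3.

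Hyou1, a large Hsp70 relative that exchanges the nucleotide of BiP, measured 73.1, 73.6 and 70.7 TPM in the NAT libraries, 73.1, 75.8 and 76.5 TPM in the P7C3-A20 libraries and 65.8, 69.3 and 68.7 TPM in the DMSO libraries. Every NAT and every P7C3-A20 library was above every DMSO library. Hyou1 had the lowest p of the 36 genes in P7C3-A20 against DMSO, with a log2 fold change of 0.14 ± 0.04 (95% interval 0.06 to 0.23, adjusted p = 0.158). In NAT against DMSO it was 0.09 ± 0.04 (adjusted p = 0.390). Sil1, the other exchange factor of BiP, averaged 70.0 ± 4.68 TPM in NAT, 69.6 ± 2.16 TPM in P7C3-A20 and 70.5 ± 0.309 TPM in DMSO libraries, with overlap throughout.

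J proteins bring substrates to BiP and start its ATP cycle. Dnajb11, which binds unfolded chains in the lumen, measured 66.8, 70.4 and 72.3 TPM in the NAT libraries, 64.9, 67.6 and 68.3 TPM in the P7C3-A20 libraries and 62.6, 64.8 and 63.8 TPM in the DMSO libraries. Every NAT and P7C3-A20 library exceeded every DMSO library. Its log2 fold change was 0.13 ± 0.04 for NAT against DMSO (95% interval 0.04 to 0.22, adjusted p = 0.295), the highest of the 36 genes, and 0.07 ± 0.04 for P7C3-A20 against DMSO (adjusted p = 0.422).

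Dnajc3, also known as p58IPK, an inhibitor of Perk and a J protein, measured 60.9, 56.5 and 58.5 TPM in the NAT libraries, 54.8, 53.7 and 47.5 TPM in the P7C3-A20 libraries and 56.3, 53.0 and 54.0 TPM in the DMSO libraries. The NAT libraries were above those of both other groups, and P7C3-A20 replicate 3 was the lowest. Its log2 fold change of 0.17 ± 0.06 for NAT against P7C3-A20 had the lowest p of the 36 genes in that comparison (95% interval 0.05 to 0.30, adjusted p = 0.216). Without P7C3-A20 replicate 3 the value was 0.11, with an adjusted p of 0.496 from limma. Dnajb9, a J protein of degradation that also restrains Ire1, measured 66.1, 67.7 and 72.8 TPM in the NAT libraries, 71.1, 68.6 and 59.8 TPM in the P7C3-A20 libraries and 71.1, 71.6 and 70.1 TPM in the DMSO libraries. Its groups overlapped in all comparisons, and the log2 fold change was -0.04 ± 0.06 for NAT and -0.09 ± 0.06 for P7C3-A20, each against DMSO. P7C3-A20 replicate 3 was the lowest, and without it the P7C3-A20 value was -0.02.

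Sdf2l1, a partner of Dnajb11 that is a known target of the unfolded protein response, measured 29.8, 29.6 and 32.3 TPM in the NAT libraries, 30.6, 36.8 and 38.0 TPM in the P7C3-A20 libraries and 34.2, 29.3 and 30.3 TPM in the DMSO libraries. P7C3-A20 replicates 2 and 3 were the highest of the 9 libraries, but replicate 1 lay among the NAT and DMSO values. The difference of NAT against P7C3-A20 was -0.19 ± 0.08 log2 units (95% interval -0.37 to -0.0062, adjusted p = 0.304), and -0.13 without P7C3-A20 replicate 3. Its relative Sdf2 had the highest level of the group, with 165, 153 and 140.1 TPM in the NAT libraries, 148, 145 and 159 TPM in the P7C3-A20 libraries and 151, 156 and 148 TPM in the DMSO libraries, and overlapped throughout. Dnajc10, a J protein with disulfide reductase activity, ranged over 97.0 to 109 TPM across the 9 libraries.

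Calr and Canx encode calreticulin and calnexin, the lectins that hold newly made glycoproteins while they fold. Calr had the highest level of all 36 genes, with 1129, 1107 and 1094 TPM in the NAT libraries, 1146, 1151 and 1067 TPM in the P7C3-A20 libraries and 1043, 1033 and 1018 TPM in the DMSO libraries. Every NAT and P7C3-A20 library was above every DMSO library. Its log2 fold change was 0.11 ± 0.03 for NAT against DMSO (95% interval 0.03 to 0.18, adjusted p = 0.307) and 0.12 ± 0.03 for P7C3-A20 against DMSO (95% interval 0.04 to 0.20, adjusted p = 0.175). The difference between the compounds was -0.01 ± 0.03 (95% interval -0.09 to 0.06), and a pseudogene copy, Calr-ps, could share reads with Calr. Canx averaged 760.0 ± 15.8 TPM in NAT, 729 ± 46.4 TPM in P7C3-A20 and 763 ± 17.0 TPM in DMSO libraries, and its groups overlapped in every comparison. 

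**Figure D2:**
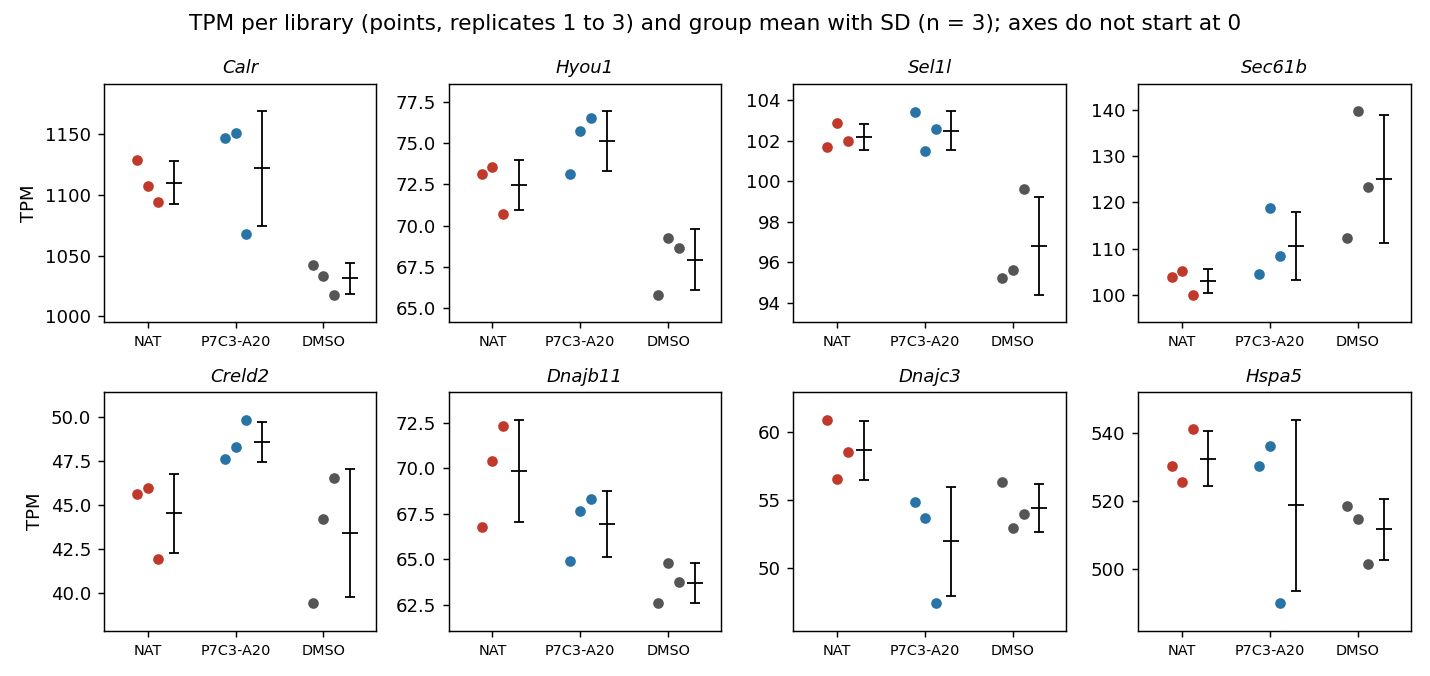
TPM of 8 genes in each of the 3 NAT, 3 P7C3-A20 and 3 DMSO libraries (points), with the group mean and SD beside them (n = 3 each). Calr, Hyou1, Dnajb11 and Sel1l lie higher in all NAT and P7C3-A20 libraries than in DMSO libraries, Sec61b lies lower in all NAT libraries, and P7C3-A20 replicate 3 is the low point of Hspa5 and Dnajc3.

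Of the 7 isomerase and oxidase genes, Pdia3 had the highest level. It encodes the disulfide isomerase that works with calreticulin and calnexin, and measured 527, 501 and 519.5 TPM in the NAT libraries, 528, 513 and 479 TPM in the P7C3-A20 libraries and 500.3, 497 and 472 TPM in the DMSO libraries. The NAT libraries lay just above the DMSO libraries, by 0.07 ± 0.04 log2 units (adjusted p = 0.493), and P7C3-A20 overlapped both. P4hb, the founding disulfide isomerase, averaged 404 ± 2.08 TPM in NAT, 407 ± 8.85 TPM in P7C3-A20 and 401 ± 9.78 TPM in DMSO libraries.

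Ppib, a cyclophilin that turns proline bonds, ranged over 272 to 308 TPM across libraries. Pdia4 and Pdia6, further disulfide isomerases, ranged over 237 to 278 TPM and 244 to 267 TPM. Pdia5, also of the disulfide isomerase family, and Ero1l, the oxidase that keeps these enzymes charged, were weaker, at 10.6 to 14.0 TPM and 18.8 to 23.3 TPM. No gene of this group other than Pdia3 separated any pair of groups, and unadjusted p was below 0.05 for 0 of the 7 in each comparison.

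Manf and Creld2 are small proteins whose genes are known to respond to endoplasmic reticulum stress. Manf, a neurotrophic factor that binds BiP, measured 112, 108 and 117 TPM in the NAT libraries, 108, 118 and 107 TPM in the P7C3-A20 libraries and 109, 107 and 108 TPM in the DMSO libraries, with overlap in every comparison. Creld2, with disulfide isomerase activity, measured 45.6, 46.0 and 41.9 TPM in the NAT libraries, 47.6, 48.3 and 49.8 TPM in the P7C3-A20 libraries and 39.4, 44.2 and 46.5 TPM in the DMSO libraries. All P7C3-A20 libraries were above all NAT and all DMSO libraries, and NAT and DMSO overlapped. Creld2 had a log2 fold change of 0.16 ± 0.06 for P7C3-A20 against DMSO (95% interval 0.03 to 0.30, adjusted p = 0.244), the highest of the 36 genes in that comparison, and -0.12 ± 0.06 for NAT against P7C3-A20 (adjusted p = 0.347). The P7C3-A20 value was 0.10 without DMSO replicate 1, the lowest library, and 0.10 with the GC trend of each library removed, where it was below that of Hyou1.

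In degradation, Sel1l and Syvn1 form the channel and ubiquitin ligase, Edem1, Edem2 and Edem3 trim sugars to mark substrates, the Derl proteins help substrates out of the membrane, and Herpud1 organises the ligase. Sel1l measured 102, 103 and 102 TPM in the NAT libraries, 103, 101 and 103 TPM in the P7C3-A20 libraries and 95.2, 95.6 and 99.6 TPM in the DMSO libraries. Every library of both compounds was above every DMSO library, while NAT and P7C3-A20 overlapped. Its log2 fold change was 0.08 ± 0.03 for NAT against DMSO (adjusted p = 0.398) and 0.08 ± 0.03 for P7C3-A20 against DMSO (adjusted p = 0.257), and the difference of NAT against P7C3-A20 had a 95% interval of -0.07 to 0.07.

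Edem3 measured 47.3, 43.5 and 45.8 TPM in the NAT libraries, 43.0, 42.9 and 36.5 TPM in the P7C3-A20 libraries and 44.6, 43.7 and 43.5 TPM in the DMSO libraries. All P7C3-A20 libraries were below all NAT and all DMSO libraries. The log2 fold change was 0.16 ± 0.06 for NAT against P7C3-A20 (95% interval 0.02 to 0.30, adjusted p = 0.267) and -0.11 ± 0.06 for P7C3-A20 against DMSO (adjusted p = 0.422). Without P7C3-A20 replicate 3 these were 0.08 and -0.03. Edem1 averaged 19.8 ± 0.173 TPM in NAT libraries, above every other library, against 18.3 ± 0.488 TPM in P7C3-A20 and 18.04 ± 1.52 TPM in DMSO libraries. Edem2 ranged over 48.6 to 56.4 TPM, with no separation of groups.

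Herpud1, a gene known for strong induction by endoplasmic reticulum stress, measured 23.5, 23.1 and 20.7 TPM in the NAT libraries, 20.3, 21.5 and 28.0 TPM in the P7C3-A20 libraries and 22.0, 25.1 and 22.6 TPM in the DMSO libraries. Groups overlapped throughout, with the highest value in P7C3-A20 replicate 3. Log2 fold changes were -0.05 ± 0.11 for NAT and -0.0092 ± 0.11 for P7C3-A20, each against DMSO, and the P7C3-A20 value was -0.14 without that library. Syvn1 ranged over 27.6 to 34.6 TPM, Derl1 over 68.0 to 77.4 TPM and Derl2 over 36.2 to 41.2 TPM. Derl3, which had 10 to 23 reads per library, ranged over 1.43 to 2.98 TPM, and its interval was the widest of the 36 genes, -0.49 to 0.37 log2 units for NAT against DMSO.

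At the translocon, Sec61b measured 104, 105 and 100.05 TPM in the NAT libraries, 105, 119 and 108 TPM in the P7C3-A20 libraries and 112, 139.7 and 123 TPM in the DMSO libraries. Every NAT library was below every DMSO library, and P7C3-A20 overlapped both. Sec61b had the lowest p of the 36 genes in NAT against DMSO, with a log2 fold change of -0.27 ± 0.07 (95% interval -0.43 to -0.12, adjusted p = 0.241). For P7C3-A20 against DMSO the value was -0.17 ± 0.07 (95% interval -0.33 to -0.02, adjusted p = 0.275). DMSO replicate 2 was the highest, and without it the NAT value was -0.19 with a limma adjusted p of 0.425 and the P7C3-A20 value was -0.09 with one of 0.551. Sec61a1, the channel subunit itself, measured 208, 217 and 213 TPM in the NAT libraries, 214, 215 and 203 TPM in the P7C3-A20 libraries and 209, 204 and 203 TPM in the DMSO libraries, and its groups overlapped. The 2 subunits had log2 fold changes of opposite sign in NAT against DMSO, -0.27 ± 0.07 and 0.05 ± 0.03.

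Cells given NAT were set against cells given vehicle to see what NAT did to differentiating stem cells. In NAT against DMSO, 25 of the 36 genes had a positive log2 fold change, against 8790 of all 13839 genes, and the median was 0.04 for the 36 genes and 0.03 for all genes. At an unadjusted p below 0.05 there were 4 genes with higher and 1 with lower values, where 8.67% and 3% of all genes met that rule. The NAT libraries lay entirely above the DMSO libraries for 8 genes (22.2%), namely Hspa5, Hyou1, Dnajb11, Dnajc3, Calr, Pdia3, Edem1 and Sel1l, against 14.1% of all genes. They lay entirely below for Sec61b alone (2.78%), against 4.89% of all genes. The lowest adjusted p was 0.241 with limma-trend and 0.147 with voom on recovered reads, both for Sec61b, and voom called 0 of the 36 genes with 3 at an unadjusted p below 0.05.

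For P7C3-A20 against DMSO, 19 of the 36 genes had a positive log2 fold change, against 7639 of all genes, and both medians were 0.01. At an unadjusted p below 0.05 there were 5 genes with higher and 1 with lower values, where 10.7% and 5.12% of all genes met that rule. P7C3-A20 libraries were entirely above DMSO libraries for Xbp1, Hyou1, Dnajb11, Calr, Creld2 and Sel1l, which is 6 genes (16.7%) against 13.1% of all genes. Edem3 alone lay entirely below (2.78%), against 7.49% of all genes. The lowest adjusted p was 0.158 for Hyou1 with limma-trend and 0.0893 for Calr with voom, which called 0 of the 36 genes with 5 at an unadjusted p below 0.05. Leaving out P7C3-A20 replicate 3 gave a median of 0.04 for the 36 genes and 0.02 for all genes.

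Both comparisons use the same 3 DMSO libraries, so their values for Calr, Hyou1, Dnajb11 and Sel1l are not independent of each other. NAT and P7C3-A20 were given at the same concentration, 3 µM. The fold changes of the direct comparison do not use the DMSO libraries. Its standard errors, intervals and p-values do, because all libraries share 1 estimate of the spread. In NAT against P7C3-A20, 20 of the 36 genes had a positive log2 fold change, against 7476 of all genes, and both medians were 0.01. At an unadjusted p below 0.05 there were 3 genes with higher and 1 with lower values, where 9.92% and 5.89% of all genes met that rule. NAT libraries were entirely above P7C3-A20 libraries for Atf6, Dnajc3, Edem1 and Edem3 (11.1%), against 13.3% of all genes. They were entirely below for Xbp1 and Creld2 (5.56%), against 8.35% of all genes. The lowest adjusted p was 0.216 with limma-trend and 0.0751 with voom, both for Dnajc3, and voom called 0 of the 36 genes with 4 at an unadjusted p below 0.05. A p above the threshold does not show that the compounds act alike, and the intervals bound the differences instead.

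**Figure D3:**
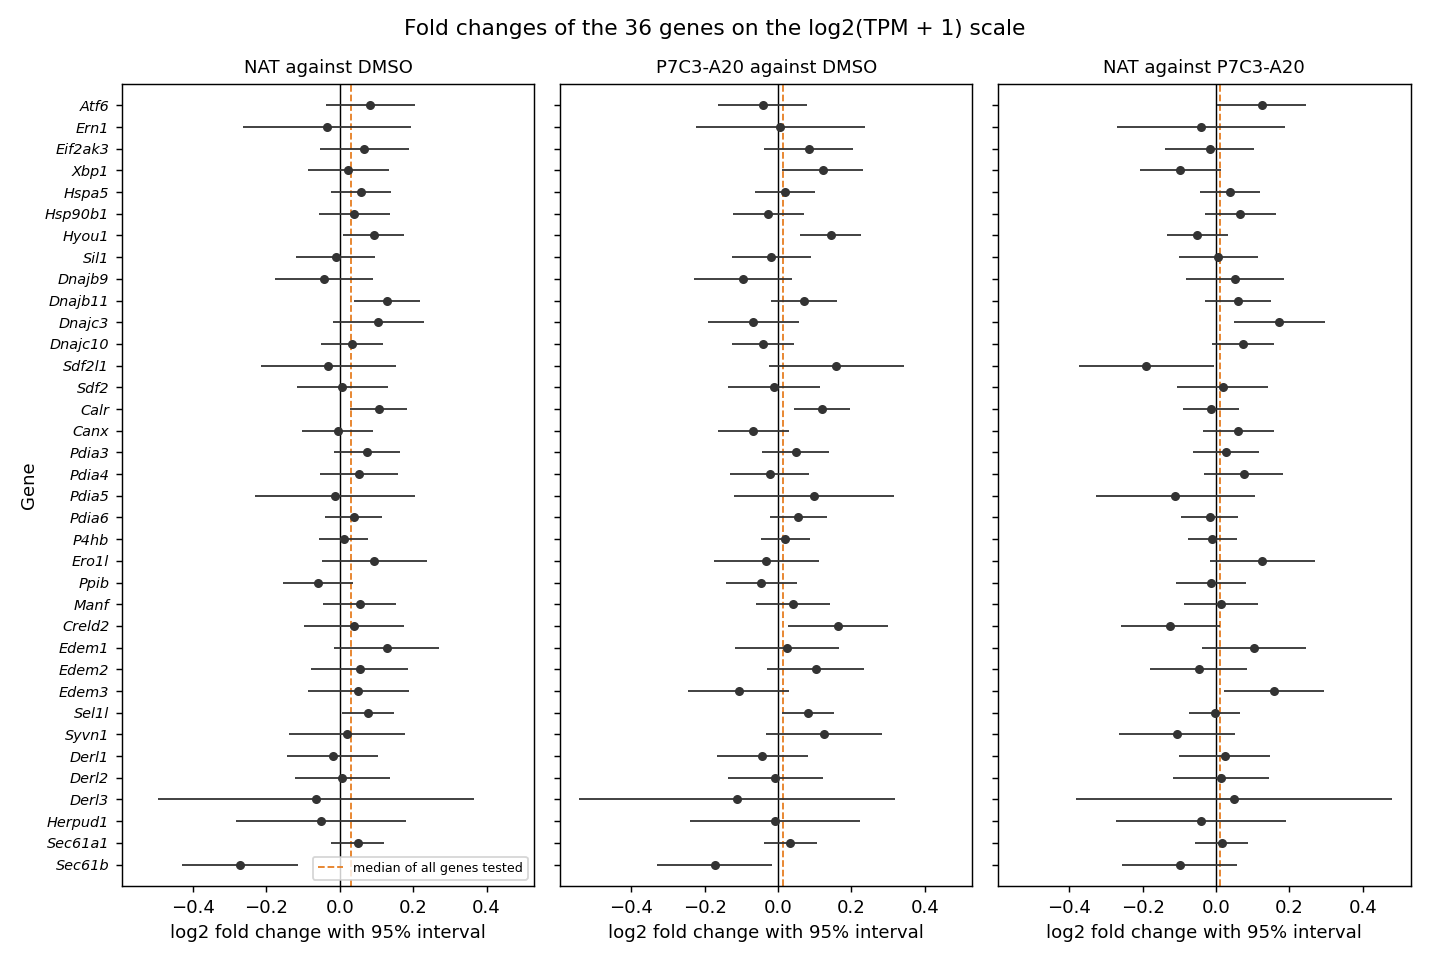
Log2 fold changes of the 36 genes with 95% intervals (limma-trend on log2(TPM + 1), n = 3 libraries per group) in the 3 comparisons, with the median of all tested genes as a dashed line. None of the genes passed the test, and Sec61b lies farthest to the left in NAT against DMSO at -0.27.

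The libraries differed in how levels followed the GC content of the transcripts, and low values of several genes in P7C3-A20 replicate 3 lined up with it. In P7C3-A20 replicate 3, the deviation of the 36 genes from their means over 9 libraries had a Spearman rho of 0.654 with GC content, and that of all tested genes with a value had 0.525. Of the 18 genes of lower GC content, 17 were below their own mean in that library, among them Dnajb9, Dnajc3, Edem3 and Hsp90b1. Of the 18 genes of higher GC content, 11 were above their own mean there. NAT replicate 3 went the other way, with a rho of -0.618 over the 36 genes and -0.176 over all genes, and 1 of the 18 genes of lower GC content below its own mean. These points share a library and are a description across genes.

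Removing each library's trend with GC content left the difference of Dnajc3 between NAT and P7C3-A20 at 0.10 (limma adjusted p = 0.386), against 0.17 without the removal. In the same comparison Edem3 was at 0.09 and Atf6 at 0.08 after the removal. For P7C3-A20 against DMSO, Xbp1 was at 0.07 and Dnajb9 at -0.04, and for NAT against DMSO, Hyou1 was at 0.06 and Sel1l at 0.05. The removal also took out each library's overall offset. The median of all genes in NAT against DMSO went from 0.03 to 3.58e-05. Voom, which uses no GC content, gave 0.06 for Hyou1 and 0.05 for Sel1l in NAT against DMSO. Of the 19 genes given by library, the value after the GC removal was over 1.5 times smaller for 10 in NAT against DMSO. In P7C3-A20 against DMSO this held for 9 and in NAT against P7C3-A20 for 5. The value was over 1.5 times larger for 3 in each comparison. In the same order it stayed within 1.5 times for 4, 5 and 7 and changed sign for 2, 2 and 4. Sec61b kept its sign, at -0.30 for NAT and -0.25 for P7C3-A20, each against DMSO. The medians of the 36 genes became 0.0072 in NAT against DMSO, 0.02 in P7C3-A20 against DMSO and -0.02 in NAT against P7C3-A20, beside 0.04, 0.01 and 0.01 without the removal. After the removal, 1 of the 36 genes had an unadjusted p below 0.05 in NAT against P7C3-A20.

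**Figure D4:**
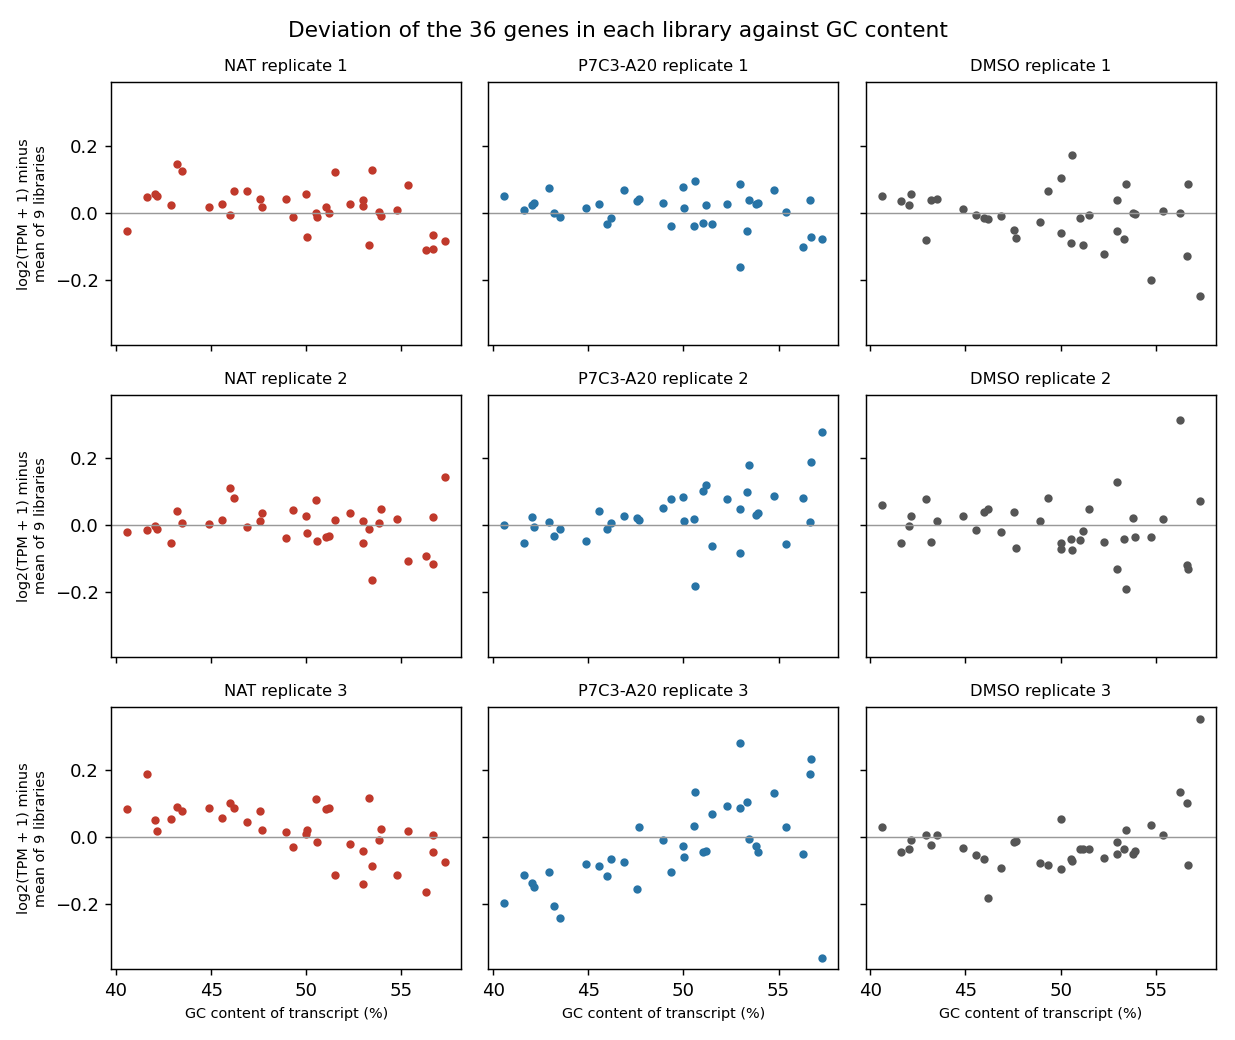
Deviation of each of the 36 genes from its mean over all 9 libraries, on the log2(TPM + 1) scale, against the GC content of its longest annotated transcript (percent), 1 panel per library. The points climb with GC content in P7C3-A20 replicate 3 (rho 0.654) and descend in NAT replicate 3 (rho -0.618).

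Replicates of the 36 genes lay close together. Their median within-group SD was 0.0658 log2 units, against 0.0827 for all tested genes, and their median level was 69.4 TPM, against 26.4 TPM for all tested genes. Together they summed to 6150 to 6576 TPM per library. Exons of 10 of the 36 genes overlap those of another annotated gene. For 9 of them the overlap is on the opposite strand (Sil1, Sdf2, Pdia3, Pdia6, Ppib, Manf, Syvn1, Derl2 and Sec61a1). Hsp90b1 has an overlap on the same strand only, and Manf has overlaps on both strands. No source states that the library kit marks strand. Values of all 10 genes may hold reads of a neighbour.

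The rest of the pathway was taken from 6 lists of 117 further genes, of which 112 were tested. None of the 112 passed the limma-trend test in any comparison. Unadjusted p was below 0.05 for 9 in NAT against DMSO, 16 in P7C3-A20 against DMSO and 17 in NAT against P7C3-A20, where 11.7%, 15.9% and 15.8% of all genes met that rule. Their medians were 0.04, -0.0054 and 0.04 in those comparisons, and 78, 53 and 69 of the 112 values were positive.

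Among other regulators of the response, Atf6b, the relative of Atf6, averaged 56.7 ± 2.47 TPM in NAT, 61.7 ± 3.67 TPM in P7C3-A20 and 53.8 ± 0.485 TPM in DMSO libraries. Its log2 fold change of 0.19 ± 0.05 in P7C3-A20 against DMSO had an adjusted p of 0.158 with limma. Creb3l2, another membrane-bound transcription factor, differed by 0.22 ± 0.07 in NAT against P7C3-A20 (adjusted p = 0.223). Mbtps1, the protease that first cuts Atf6, had 0.06 ± 0.03 in NAT against DMSO (adjusted p = 0.510).

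Of the genes downstream of Perk, Ppp1r15a, which restores protein synthesis, averaged 16.4 ± 0.900 TPM in NAT and 18.5 ± 0.379 TPM in DMSO libraries, with no overlap (log2 fold change -0.16 ± 0.08, adjusted p = 0.467). Sesn2, a stress-induced regulator of growth signalling, averaged 90.9 ± 5.71 TPM in P7C3-A20 and 81.1 ± 0.859 TPM in DMSO libraries (0.16 ± 0.05, adjusted p = 0.178). Asns, which makes asparagine, averaged 58.4 ± 2.07 TPM in NAT and 52.9 ± 3.32 TPM in P7C3-A20 libraries (0.14 ± 0.06, adjusted p = 0.277).

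Among other chaperones and isomerases, Fkbp11, a proline isomerase, had the widest difference in NAT against P7C3-A20, with 5.77 ± 0.211 TPM in NAT, 3.32 ± 1.05 TPM in P7C3-A20 and 5.07 ± 0.570 TPM in DMSO libraries. That log2 fold change was 0.68 ± 0.16 (adjusted p = 0.174), from 10 to 20 reads per library. Serpinh1, the collagen chaperone, averaged 267 ± 5.91 TPM in P7C3-A20 and 248 ± 6.84 TPM in DMSO libraries (0.11 ± 0.03, adjusted p = 0.178). Erp29, a lumenal folding factor, averaged 146 ± 6.05 TPM in NAT and 158 ± 5.95 TPM in DMSO libraries (-0.11 ± 0.04, adjusted p = 0.362).

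For sugar transfer and sorting, subunits of the oligosaccharyltransferase had the lowest p against DMSO: Dad1 at -0.08 ± 0.04 for NAT (adjusted p = 0.439) and Ddost at 0.11 ± 0.04 for P7C3-A20 (adjusted p = 0.223). Os9, a lectin of degradation, was at -0.09 ± 0.03 in NAT against P7C3-A20 (adjusted p = 0.250). In the other degradation machinery, Aup1, which recruits a ubiquitin-conjugating enzyme, was at 0.13 ± 0.05 for P7C3-A20 against DMSO (adjusted p = 0.249), and that enzyme's gene, Ube2g2, was at -0.14 ± 0.05 in NAT against P7C3-A20 (adjusted p = 0.254). In translocation and signal peptide removal, the signal recognition receptor gene Srpr was at 0.13 ± 0.04 for NAT against DMSO (adjusted p = 0.317). Ssr2, of the translocon-associated complex, was at -0.11 ± 0.04 for P7C3-A20 against DMSO (adjusted p = 0.236), and Sec11c, of the signal peptidase, at 0.12 ± 0.04 in NAT against P7C3-A20 (adjusted p = 0.228).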

How the data were processed

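RNA sequencing libraries were built from 1 kind of culture in 3 groups of 3 with an Illumina TruSeq kit, per the labels' protocols. The authors deposited TPM for 23420 gene symbols, with a sum of 1000000 in each library. Bowtie 0.12.2, mm8 and mm9 are named, without a role, in the submitters' processing notes. Counter and annotation: not given in the sources used here.

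TPM steps gave whole reads for 19301 of 19302 genes with a value (99.99%, tolerance 0.001; Rn45s failed), used for depth and voom only. Groups were compared with limma 3.58.1 (R 4.3.3), limma-trend on log2(TPM + 1), for 13839 genes at 1 TPM or more in at least 3 libraries, with all 9 libraries in 1 fit (6 residual degrees of freedom), two-sided, and adjusted over all genes within each comparison. A fold change on the log2(TPM + 1) scale understates the change of weak genes. Errors of fold changes are standard errors. The fit was tested on simulated data. GC content came from the longest GENCODE M21 transcript, found for 98.3% of symbols. Its trend was a spline with 5 degrees of freedom, fitted per library with an intercept, so the removal also takes out each library's overall offset.

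The members and lists were chosen with earlier results of these data known. Values in every library are given for the 5 members of lowest p per comparison, the member of highest level in each role group and 7 inducible genes, Hspa5, Herpud1, Dnajb9, Sdf2l1, Manf, Creld2 and Xbp1. Of each further pathway list, the gene of lowest p per comparison is named, except for 1 result that is not reported here. Alternatives were another filter, pseudocount, normalisation, test, GC correction or set of libraries. Python 3.11.15, pandas 2.3.3 and matplotlib 3.10.9 were used for the other steps.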

Additional observations from a re-analysis of the deposited data

How the results depend on the processing

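None of the 36 genes passed the test in any comparison under any of 16 alternatives each. Of 304 values for 19 genes under those alternatives, 289 in NAT against DMSO, 291 in P7C3-A20 against DMSO and 278 in NAT against P7C3-A20 kept their sign, with lowest adjusted p-values of 0.147, 0.0893 and 0.0751. The replicate block, the robust form of the test, the other filters and the use of only the 6 libraries leave the fold change itself unchanged. GC removal with the block repeats the values of GC removal. The counts of kept signs therefore rest on fewer than 16 separate alternatives. The causes of the changes below were not tested. Derl3 had the fewest reads, 10 to 23 per library, and the widest interval.

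Replicate numbers did not pair the libraries, since correlations of same-numbered libraries were between -0.062 and 0.067. With the replicate block, 3, 7 and 1 genes of the whole table passed in NAT against DMSO, P7C3-A20 against DMSO and NAT against P7C3-A20, against 4, 3 and 0. With the block and GC trend removed these were 7, 1 and 0, and the member medians 0.0072, 0.0155 and -0.0162, the same medians as with GC removal alone.

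In NAT against DMSO, 2 genes of the table passed with a minimum of 5 TPM, 1 with a pseudocount of 0.1, 27 with voom, 8 with only the 6 libraries compared, and 0 to 8 when a library was left out. In P7C3-A20 against DMSO these were 0, 0, 251, 5, and 1 to 4. In NAT against P7C3-A20, voom gave 330, only the 6 libraries gave 5, and leaving out a library gave 0 to 1. The member median was 0.008 with voom in NAT against DMSO. Leaving out a library gave medians of -0.0014 to 0.0407 in P7C3-A20 against DMSO and -0.0139 to 0.0235 in NAT against P7C3-A20, where the extremes 0.0407 and -0.0139 were without P7C3-A20 replicate 3.

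Some small log2 fold changes took the other sign. In NAT against DMSO, Xbp1 was at -0.0107 with quantile normalisation, -0.0082 with voom and -0.0078 with GC removal, with or without the block, and Sdf2 at -0.0227, -0.0215 and -0.0249. In P7C3-A20 against DMSO, GC removal gave 0.0241 for Hsp90b1 and -0.0252 for Sec61a1. In NAT against P7C3-A20, GC removal gave -0.0154 for Hsp90b1, -0.0125 for Pdia3, -0.0137 for Hspa5 and -0.0379 for Dnajb9. Quantile normalisation gave 0.0284 for Calr and -0.0049 for Sec61a1, and voom -0.00024 for Sec61a1 and -0.0033 for Manf.

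Leaving out a library gave ranges that include 0. In NAT against DMSO these were -0.0274 to 0.0901 for Creld2, -0.0757 to 0.0323 for Sdf2l1, -0.0184 to 0.0660 for Xbp1, -0.0495 to 0.0675 for Sdf2 and -0.0884 to 0.0039 for Herpud1. In P7C3-A20 against DMSO these were -0.0530 to 0.0278 for Hsp90b1, -0.0497 to 0.0153 for Sdf2, -0.0057 to 0.0676 for Manf, -0.0056 to 0.0590 for Hspa5 and -0.144 to 0.0775 for Herpud1. In NAT against P7C3-A20 these were -0.0498 to 0.0045 for Calr, -0.0113 to 0.0021 for Sel1l, -0.0387 to 0.0783 for Sdf2, -0.0140 to 0.0570 for Pdia3, -0.0179 to 0.0597 for Manf, -0.0103 to 0.0300 for Sec61a1, -0.0021 to 0.0625 for Hspa5, -0.129 to 0.0925 for Herpud1 and -0.0216 to 0.101 for Dnajb9.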
